A study of Homo sapiens with 12 samples.

Results

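Krüppel-like factors (KLFs) are transcription factors that bind GC-rich and CACCC-type DNA through zinc fingers at the end of the protein, and they share this binding with the SP factors. Their other end differs between family groups. KLF2, KLF4, KLF5, KLF6 and KLF7 mostly activate transcription by recruiting acetyltransferases, KLF9, KLF10, KLF11 and KLF13 recruit the SIN3 corepressor, and KLF3 recruits CtBP. Several KLF genes are short-lived, inducible transcripts that answer stress, growth factors or differentiation signals, and KLF4 can activate CDKN1A, the gene of the cell cycle inhibitor p21.

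The expression of 10 KLF genes, chosen by symbol, was followed among the 36486 genes of the deposited count table after rows were summed by symbol. TOV-112D, an ovarian carcinoma line that carries p53 R175H, was treated for 3 h with the vehicle DMSO, with UCI-1001 or with UCI-1014 (n = 2 libraries each). Both compounds belong to a pyrimidine trione series tested as activators of mutant p53. The authors state 10 µM for UCI-1001, and no dose for the UCI-1014 libraries is given in the sources used here. The other libraries are labelled Saos-2, an osteosarcoma line, as p53-null parental cells or as cells with doxycycline-inducible wild-type p53 (p53-WT), both with 16 h of induction (n = 3 each). The p53-WT cells are a stable engineered line compared with its parental line, so effects of the line and of p53 cannot be told apart.

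Library totals lay between 17762027 and 20717898 counts in TOV-112D and between 19593655 and 24629558 counts in the Saos-2 libraries. Defining osteoblast markers were absent or nearly so in the libraries labelled Saos-2. SP7 had 0 counts in all 6, ALPL 0 to 12, IBSP 0 to 2, BGLAP 1 to 4 and COL1A1 8 to 42, whereas RUNX2 (94 to 256) and SPP1 (289 to 1009) were present, and the keratin genes KRT8 and KRT18 reached 170.4 to 373.69 and 382.5 to 585.25 TPM, a level corrected for transcript length. In TOV-112D, VIM was high (7237.48 to 7835.89 TPM), KRT18 had 0 counts, PAX8 at most 1 and EPCAM 34 to 57. The 6 markers of blood and endothelial cells summed to 1.32 to 2.27 TPM in TOV-112D and 0.69 to 1.41 TPM in the Saos-2 libraries, and CD3E and HBB had 0 counts in all 12. Between p53-WT and p53-null cells the osteoblast marker RUNX2 was lower (-0.96 ± 0.18) and SPP1 was higher (1.40 ± 0.14). Of 6 tested epithelial and ovarian markers, 2 were higher and 1 lower, where 33.5% of all genes tested were higher and 33% lower. The endothelial marker VWF had 2, 3 and 2 counts in p53-null and 54, 39 and 50 in p53-WT cells, and was tested only because it passed the low-count filter in the latter. The part of such marker changes in the KLF results was not tested, and in bulk RNA fewer expressing cells and less RNA per cell cannot be told apart. The first replicates of p53-null and of p53-WT stood apart from the other two of their group, at a chi-square of 23 to 38.4 for each degree of freedom, where the remaining pairs gave 3.09 to 3.79, and the KLF results of this pair are given with and without them.

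With UCI-1001, 6 of the 10 KLF genes rose and 1 fell, and with UCI-1014, 7 rose and 1 fell. In both cases KLF13 was the gene that fell. KLF4 had 1 count in each DMSO library and passed the low-count filter only through the treated groups, so it had to differ, and without it 5 of 9 rose and 1 fell with UCI-1001 and 6 of 9 rose and 1 fell with UCI-1014. Of these 9 genes KLF5 had the largest log2 fold change with each compound. In the Saos-2 pair 6 KLF genes were lower in p53-WT cells, led by KLF2, and 2 were higher, KLF5 and KLF9. KLF2 itself was not called with either compound. Of the genes called with both compounds, KLF4 left aside, KLF6, KLF7 and KLF10 went the other way in this pair. KLF5, KLF9 and KLF13 went the same way. The difference between the lines was not tested. A gene was called at an adjusted p under 0.05 in edgeR's quasi-likelihood test over all genes, which is the test behind every adjusted p given here. Among all 14177 genes tested in TOV-112D, 9.39% were called higher and 6.36% lower with UCI-1001, and 23.7% higher and 23.4% lower with UCI-1014. Among the 14275 genes tested in the Saos-2 libraries, 33.5% were higher and 33% lower in p53-WT cells. The median log2 fold change of the 10 KLF genes was 0.46 with UCI-1001, 0.66 with UCI-1014 and -0.93 with p53-WT, beside medians of 0, -0.02 and -0.01 over all genes tested. Without KLF4 the medians with the compounds were 0.42 and 0.35.

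The promoter windows of 4 of these genes are printed here because KLF4, KLF5 and KLF6 rose with the compounds and KLF2 fell furthest with p53-WT. They are RefSeq windows on GRCh38.p14 of 250 bases before and 50 bases after the transcription start, read 5′ to 3′ on the gene's strand, and 8 of the 10 members had at least 1 window. KLF4 lies on the minus strand (chr9:107489720-107490019), as does KLF6 (chr10:3785160-3785459). KLF2 lies on the plus strand (chr19:16324576-16324875), and so does KLF5, which has a distal start (chr13:73054726-73055025) and a proximal one (chr13:73058755-73059054). Capitals mark the letters GGGCGG (the GC box), CACGTG (the E box), CCAAT and TATAAA on either strand, and in KLF2 also a match to the MEF2 element. GC boxes that overlap in KLF2 run together.
KLF4: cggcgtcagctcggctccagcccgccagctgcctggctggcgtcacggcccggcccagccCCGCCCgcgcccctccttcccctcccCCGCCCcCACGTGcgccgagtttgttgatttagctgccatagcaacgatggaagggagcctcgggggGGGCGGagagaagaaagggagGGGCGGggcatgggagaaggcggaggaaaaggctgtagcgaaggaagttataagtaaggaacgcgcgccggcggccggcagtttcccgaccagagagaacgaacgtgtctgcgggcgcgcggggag
KLF6: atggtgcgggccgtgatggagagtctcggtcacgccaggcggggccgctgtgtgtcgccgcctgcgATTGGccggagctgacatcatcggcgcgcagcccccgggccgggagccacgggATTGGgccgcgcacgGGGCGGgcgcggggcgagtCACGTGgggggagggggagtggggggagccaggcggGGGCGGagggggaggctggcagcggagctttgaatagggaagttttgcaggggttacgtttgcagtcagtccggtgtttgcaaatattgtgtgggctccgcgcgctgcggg
KLF5, distal start: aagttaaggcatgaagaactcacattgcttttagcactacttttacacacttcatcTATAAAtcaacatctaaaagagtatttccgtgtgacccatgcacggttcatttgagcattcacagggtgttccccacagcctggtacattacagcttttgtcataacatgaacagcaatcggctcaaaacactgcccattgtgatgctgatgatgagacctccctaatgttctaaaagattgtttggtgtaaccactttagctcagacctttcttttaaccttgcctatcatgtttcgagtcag
KLF5, proximal start: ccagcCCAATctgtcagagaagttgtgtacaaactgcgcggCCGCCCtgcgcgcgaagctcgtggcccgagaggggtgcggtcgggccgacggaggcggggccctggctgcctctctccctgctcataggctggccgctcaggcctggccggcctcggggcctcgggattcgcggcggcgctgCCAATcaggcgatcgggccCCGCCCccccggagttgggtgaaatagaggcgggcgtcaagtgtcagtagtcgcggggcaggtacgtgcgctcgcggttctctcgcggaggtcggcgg
KLF2: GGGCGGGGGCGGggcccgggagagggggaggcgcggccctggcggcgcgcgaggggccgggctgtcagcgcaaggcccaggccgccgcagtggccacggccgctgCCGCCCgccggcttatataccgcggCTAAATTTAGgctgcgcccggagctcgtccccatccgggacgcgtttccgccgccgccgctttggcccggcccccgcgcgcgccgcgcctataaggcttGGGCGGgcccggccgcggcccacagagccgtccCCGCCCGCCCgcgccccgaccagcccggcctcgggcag

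The GC box, which KLF and SP proteins can bind, was found in 8 of the 13 member windows, in 7 genes, and in 45.0% of all 35116 windows. KLF4 and KLF6, both higher with the compounds, hold GC boxes and 1 E box each, and the E box was also found in windows of KLF7 and KLF11 and in 7.26% of all windows. The distal KLF5 window holds a TATAAA match (11.5% of all windows) and no GC box, and the proximal one holds 2 GC boxes and 2 CCAAT matches (34.6%). The MEF2 match of KLF2, a known entry point of the MEK5/ERK5 pathway into this gene, was the only one among the member windows (2.99% of all windows). CCACCC was found for KLF7 and KLF13 (34.3%), TGACGTCA for KLF11 (1.85%), GAANNTTC (6.77%) and the serum response element (1.29%) for KLF7, and TGANTCA (7.71%) and the p53 half-site (6.63%) in no member window. These letter matches are descriptions of the windows and were not tested as binding sites.

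KLF4, a factor of epithelial differentiation and growth arrest, was nearly silent in untreated TOV-112D cells. It had 1 and 1 counts with DMSO, 32 and 37 with UCI-1001 and 78 and 58 with UCI-1014. All treated libraries lay above both DMSO libraries. Summed over libraries, UCI-1001 gave a count ratio of 32.6 (95% exact interval 8.69 to 275) and UCI-1014 one of 71 (19.3 to 592), intervals that cover counting error only. Since the filter on low counts kept KLF4 only for its treated groups, no adjusted p is given for it against DMSO. In TPM the gene reached 1.29 in each UCI-1001 library and 3.16 and 2.14 with UCI-1014.

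**Figure D1:**
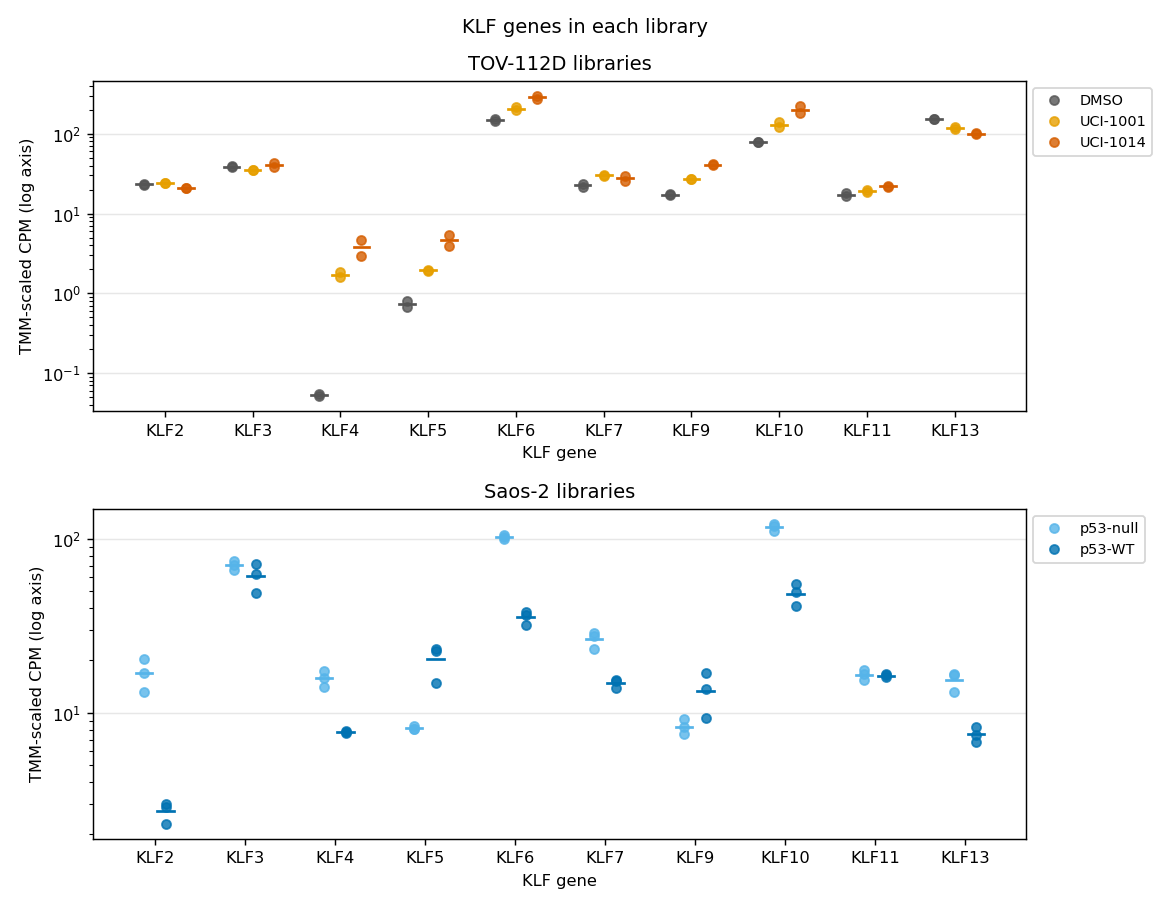
TMM-scaled CPM of the 10 KLF genes in each library on a log axis, with points for libraries and short bars for group means (TOV-112D above, Saos-2 below). KLF4 rises from 0.0515 and 0.0541 CPM with DMSO to 2.97 and 4.66 with UCI-1014, and KLF2 drops to 2.3 to 3 CPM in p53-WT cells.

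KLF5, which drives proliferation in many epithelial cells, was also low in DMSO. Its level in CPM, the count scaled to the library size with edgeR's TMM factors, was 0.67 and 0.812 with DMSO, 1.98 and 1.91 with UCI-1001 and 5.32 and 3.89 with UCI-1014. The 3 groups did not overlap. The log2 fold change was 1.39 ± 0.33 (SE) with UCI-1001 (adjusted p = 0.011) and 2.62 ± 0.30 with UCI-1014 (adjusted p = 5.7e-06). The UCI-1001 call rested on both DMSO libraries, since the adjusted p was 0.1 without DMSO replicate 1 and 0.052 without DMSO replicate 2.

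KLF6, a tumour suppressor and stress-inducible factor, had the highest mean TPM of the 10 genes in each TOV-112D group, overlapping KLF10 with UCI-1014, although in CPM KLF13 was as high in DMSO. It measured 143 and 151 CPM with DMSO, 196 and 216 with UCI-1001 and 297 and 273 with UCI-1014. Each group lay wholly above the previous one. KLF6 rose by 0.49 ± 0.05 on the log2 scale with UCI-1001 (adjusted p = 2.4e-05) and by 0.96 ± 0.05 with UCI-1014 (adjusted p = 2.8e-09), or 1.41-fold and 1.94-fold.

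KLF7, the member best known from neurons and adipocytes, rose less. It measured 23.3 and 21.7 CPM with DMSO, 29.4 and 30.8 with UCI-1001 and 29.6 and 25.6 with UCI-1014, and both compounds lay above DMSO. The log2 fold changes were 0.42 ± 0.08 (adjusted p = 0.0036) and 0.29 ± 0.09 (adjusted p = 0.014). Both calls were lost without DMSO replicate 2 (adjusted p = 0.062 and 0.11), and the UCI-1014 call also without UCI-1014 replicate 1 (adjusted p = 0.12). KLF2, the flow-responsive factor of endothelium and a quiescence factor of T cells, was the activator-group gene that was not called with either compound. It measured 23.7 and 23.0 CPM with DMSO, 24.0 and 24.0 with UCI-1001 and 20.8 and 20.8 with UCI-1014. Its log2 fold change was 0.04 with UCI-1001 (95% interval -0.12 to 0.20) and -0.17 with UCI-1014 (-0.33 to 0.00, adjusted p = 0.09).

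Among the genes of the SIN3-binding group, KLF9 and KLF10 rose with both compounds. KLF9, a glucocorticoid- and thyroid hormone-induced gene, measured 16.9 and 17.5 CPM with DMSO, 26.8 and 26.8 with UCI-1001 and 41.5 and 40.8 with UCI-1014. Replicates of a group differed by less than 1 CPM while the groups differed by several. The log2 fold changes were 0.64 ± 0.08 (adjusted p = 5e-05) and 1.26 ± 0.07 (adjusted p = 4.1e-09). KLF10, first described as a TGF-β-inducible early gene, measured 78.8 and 78.8 CPM with DMSO, 120 and 140 with UCI-1001 and 222 and 180 with UCI-1014. It rose by 0.72 ± 0.09 (adjusted p = 6.6e-05) and by 1.35 ± 0.09 (adjusted p = 1.1e-08) on the log2 scale.

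KLF11, the close relative of KLF10 and likewise linked to TGF-β signalling, measured 17.9 and 16.4 CPM with DMSO, 18.5 and 19.6 with UCI-1001 and 22.2 and 21.6 with UCI-1014. It was called with UCI-1014, at 0.35 ± 0.09 (adjusted p = 0.0035), and with UCI-1001 its log2 fold change was 0.15 (95% interval -0.04 to 0.33). KLF13, an activator of CCL5 in T cells, was the gene that fell, from 151 and 151 CPM with DMSO to 122 and 114 with UCI-1001 and 98.3 and 102 with UCI-1014. It fell by 0.36 ± 0.04 (adjusted p = 8.2e-05) and by 0.59 ± 0.05 (adjusted p = 9.5e-08) on the log2 scale. KLF3, the CtBP-binding repressor of this list, stayed uncalled with 39.2 and 38.3 CPM in DMSO, 35.3 and 35.1 with UCI-1001 and 42.5 and 37.8 with UCI-1014. Its intervals ran from -0.29 to 0.01 with UCI-1001 and from -0.10 to 0.20 with UCI-1014. The comparisons of the 2 compounds with vehicle share their DMSO libraries, so their similarity in direction is not independent. With all 12 libraries in 1 fit the UCI-1001 calls of KLF5, KLF7, KLF9 and KLF13 were lost (adjusted p = 0.1, 0.17, 0.17 and 0.12), as were the UCI-1014 calls of KLF7 and KLF11 (adjusted p = 0.21 and 0.066). With limma on log2 TPM those of KLF5 and KLF13 with UCI-1001 (adjusted p = 0.22 and 0.099) and of KLF11 with UCI-1014 (adjusted p = 0.18) were lost, and DESeq2 did not call KLF7 with UCI-1014 (adjusted p = 0.076).

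**Figure D2:**
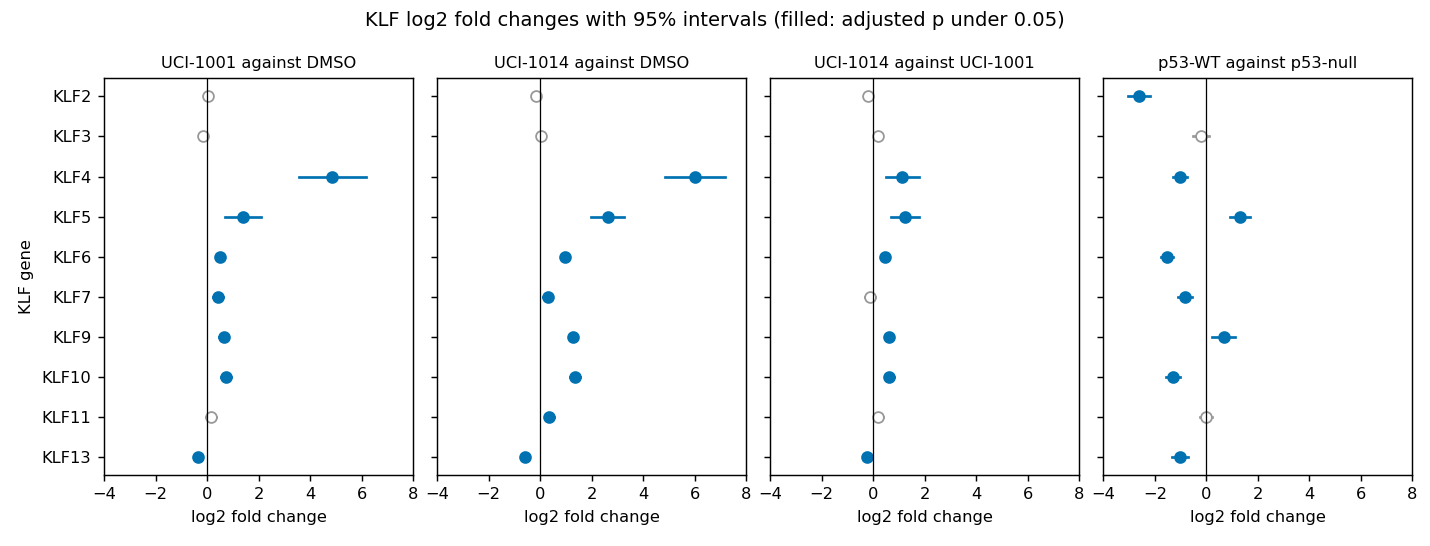
Log2 fold changes of the 10 KLF genes (points) with 95% intervals (lines) in the 4 comparisons, filled where the adjusted p was under 0.05. KLF4, a description only against DMSO since the low-count filter kept it for its treated groups, lies at -1.03 with p53-WT, and KLF5 is above 0 in all 4 panels.

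The direct comparison of the related compounds UCI-1014 and UCI-1001 asked whether their KLF responses differed in size. With UCI-1014, 5 of the 10 KLF genes were higher than with UCI-1001 and 1 was lower, where 17.1% of all genes tested were called higher and 13.9% lower, and the median was 0.34 over the members and -0.01 over all genes. KLF5 was higher by 1.23 ± 0.26 on the log2 scale (adjusted p = 0.0022), KLF10 by 0.63 ± 0.08 (adjusted p = 4.2e-05), KLF9 by 0.62 ± 0.07 (adjusted p = 9.5e-06) and KLF6 by 0.47 ± 0.05 (adjusted p = 1.1e-05). KLF4 was higher by 1.13 ± 0.29 (adjusted p = 0.009), a call lost without UCI-1001 replicate 1 (adjusted p = 0.066) or UCI-1014 replicate 1 (adjusted p = 0.15). KLF13 was lower with UCI-1014, by -0.23 ± 0.05 (adjusted p = 0.0016). For the other 4 genes the difference was not called, with 95% intervals of -0.37 to -0.04 for KLF2 (adjusted p = 0.053), 0.03 to 0.34 for KLF3 (adjusted p = 0.06), -0.31 to 0.05 for KLF7 (adjusted p = 0.26) and 0.03 to 0.38 for KLF11 (adjusted p = 0.08). The KLF3 difference was called without UCI-1014 replicate 2 (adjusted p = 0.015). The calls of KLF9 and KLF13 were lost with all 12 libraries in 1 fit (adjusted p = 0.084 and 0.21), and those of KLF4, KLF5 and KLF13 with limma on log2 TPM (adjusted p = 0.24, 0.19 and 0.34). Since no dose is given for UCI-1014, the dose and the compound cannot be told apart in this comparison.

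The Saos-2 pair compared cells with and without wild-type p53. Of the activator group, 4 of 5 genes were lower in p53-WT cells and 1 was higher, and of the SIN3-binding group 2 of 4 were lower and 1 was higher. The same 8 genes were called when both first replicates were left out. Of all genes tested in this pair, 33% were called lower and 33.5% higher. KLF2 measured 13.2, 17.0 and 20.3 CPM in p53-null cells and 2.3, 2.89 and 3.00 in p53-WT cells. The groups were far apart, and KLF2 fell by 2.62 ± 0.19 on the log2 scale (adjusted p = 4.1e-07), so p53-null cells had 6.17 times the p53-WT level.

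KLF6 measured 100, 105 and 102 CPM in p53-null cells and 31.8, 38 and 36.4 in p53-WT cells (log2 fold change -1.53 ± 0.11, adjusted p = 3.3e-07). KLF10 measured 111, 119 and 122 CPM against 40.9, 54.6 and 49.3 (-1.28 ± 0.12, adjusted p = 3.9e-06). In both genes, which rose with the compounds in TOV-112D, every p53-WT library lay below every p53-null library. KLF4 was well expressed here, at 14.1, 15.9 and 17.4 CPM in p53-null cells, and lower in p53-WT cells, at 7.71, 7.87 and 7.62 (-1.03 ± 0.13, adjusted p = 3e-05). KLF7 fell from 23.3, 27.6 and 28.6 to 13.9, 15.5 and 15.3 CPM (-0.83 ± 0.12, adjusted p = 1e-04). KLF13, the gene that also fell with the compounds, dropped from 13.1, 16.7 and 16.4 to 6.82, 8.31 and 7.49 CPM (-1.03 ± 0.14, adjusted p = 7.1e-05).

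KLF5 and KLF9 were the members higher in p53-WT cells. KLF5 measured 8.02, 8.39 and 8.11 CPM in p53-null cells and 14.8, 22.6 and 23.4 in p53-WT cells (1.31 ± 0.17, adjusted p = 5.1e-05), with the first p53-WT replicate lowest of its group and still above all p53-null libraries. KLF9 measured 7.56, 9.15 and 8.29 CPM against 9.3, 17.0 and 13.7 (0.68 ± 0.20, adjusted p = 0.011). Its groups nearly touched, and the call was lost without p53-null replicate 1 (adjusted p = 0.062) or p53-WT replicate 2 (adjusted p = 0.051), and with limma on log2 TPM (adjusted p = 0.29). KLF3 (70.6, 74.8 and 65.9 against 48.8, 71.5 and 62.6 CPM) and KLF11 (15.5, 17.5 and 16.7 against 16.0, 16.4 and 16.6 CPM) overlapped between the groups, with 95% intervals of -0.52 to 0.10 and -0.26 to 0.22. Without KLF4, which had to differ from DMSO, 6 genes were called higher with UCI-1014 in TOV-112D. Of these, KLF6, KLF7 and KLF10 were lower in p53-WT cells, KLF5 and KLF9 were higher and KLF11 was not called. The difference between the lines was not tested, and the line, the time and the agent cannot be told apart in it.

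The transcript estimates of KLF5 differed between the lines. In the 6 TOV-112D libraries the transcript of the distal start, KLF5-205, was listed at 0 TPM, and the transcript of the proximal start, KLF5-201, was at 0.25 and 0.37 with DMSO, 0.81 and 0.89 with UCI-1001 and 2.4 and 1.62 with UCI-1014. In p53-null cells KLF5-205 was at 2.45, 3.1 and 1.58 TPM and KLF5-201 at 0.94, 1.13 and 2.11. In p53-WT cells KLF5-205 was at 0.93, 7.99 and 8.33 TPM and KLF5-201 at 2.88, 1.96 and 1.89. The distal transcript was thus high in p53-WT replicates 2 and 3 and not in replicate 1, one of the libraries that stood apart. In p53-null replicate 1 a further transcript, KLF5-202, took 59.5% of the gene's TPM. These transcripts share most of their sequence and the estimates come from the authors' quantification, so the assignment of reads between them is uncertain, and it was not tested.

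**Figure D3:**
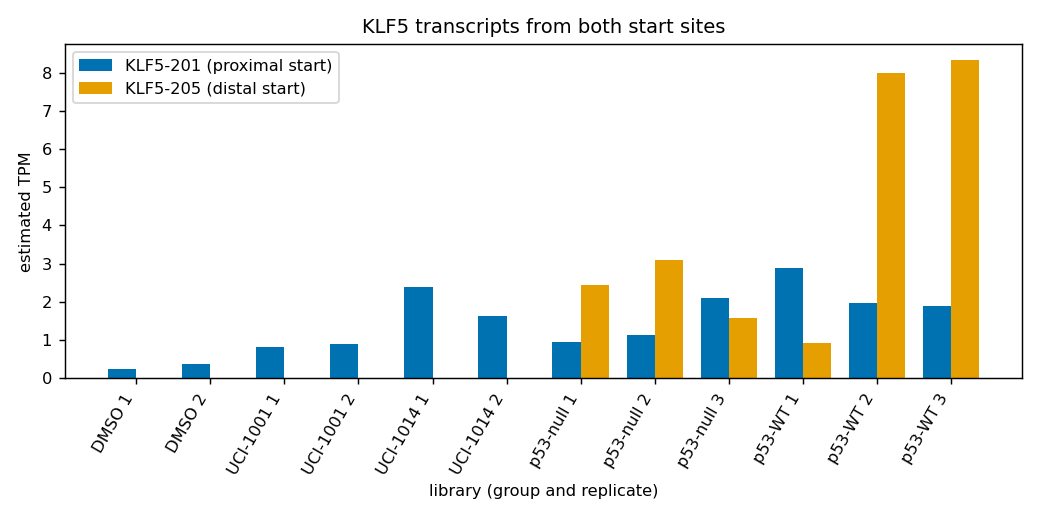
Estimated TPM of the KLF5 transcripts from the proximal start (KLF5-201) and the distal start (KLF5-205) in each of the 12 libraries. KLF5-205 is listed at 0 in all TOV-112D libraries and reaches 7.99 and 8.33 in p53-WT replicates 2 and 3.

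Between genes, levels were compared per length, in TPM. In TOV-112D cells with DMSO the order of mean levels was KLF6 (60.45 ± 3.59, SD, n = 2), KLF10 (41.56), KLF13 (36.31), KLF2 (22.48), KLF3 (12.56), KLF11 (7.57), KLF7 (6.91), KLF9 (5.32), KLF5 (0.48) and KLF4 (0.1), and no neighbours overlapped. With UCI-1014, KLF6 (117.49) and KLF10 (102.76) overlapped and stood well above KLF13 (24.85), KLF2 (22.62) and KLF3 (13.16). At the lower end KLF4 (2.65) and KLF5 (2.41) remained the least abundant of the 10 despite their large folds.

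In p53-null cells KLF10 led with 55.16 TPM, followed by KLF6 (34.7), KLF3 (21.6) and KLF2 (17.79), none of which overlapped with the next. KLF13 was near the end of the order at 3.35 TPM and KLF9 last at 2.31, and the neighbours from KLF7 (9.46) down overlapped. In p53-WT cells KLF10 (19.76), KLF3 (16.41), KLF6 (11.92) and KLF5 (10.32) were highest, each overlapping the next of these, and KLF2 (2.31) and KLF13 (1.79) were lowest. The KLF7 value covers 82.1% of the gene's counts, because its other transcripts were not matched to the annotation, and the TPM levels across the lines were set side by side with no test.

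**Figure D4:**
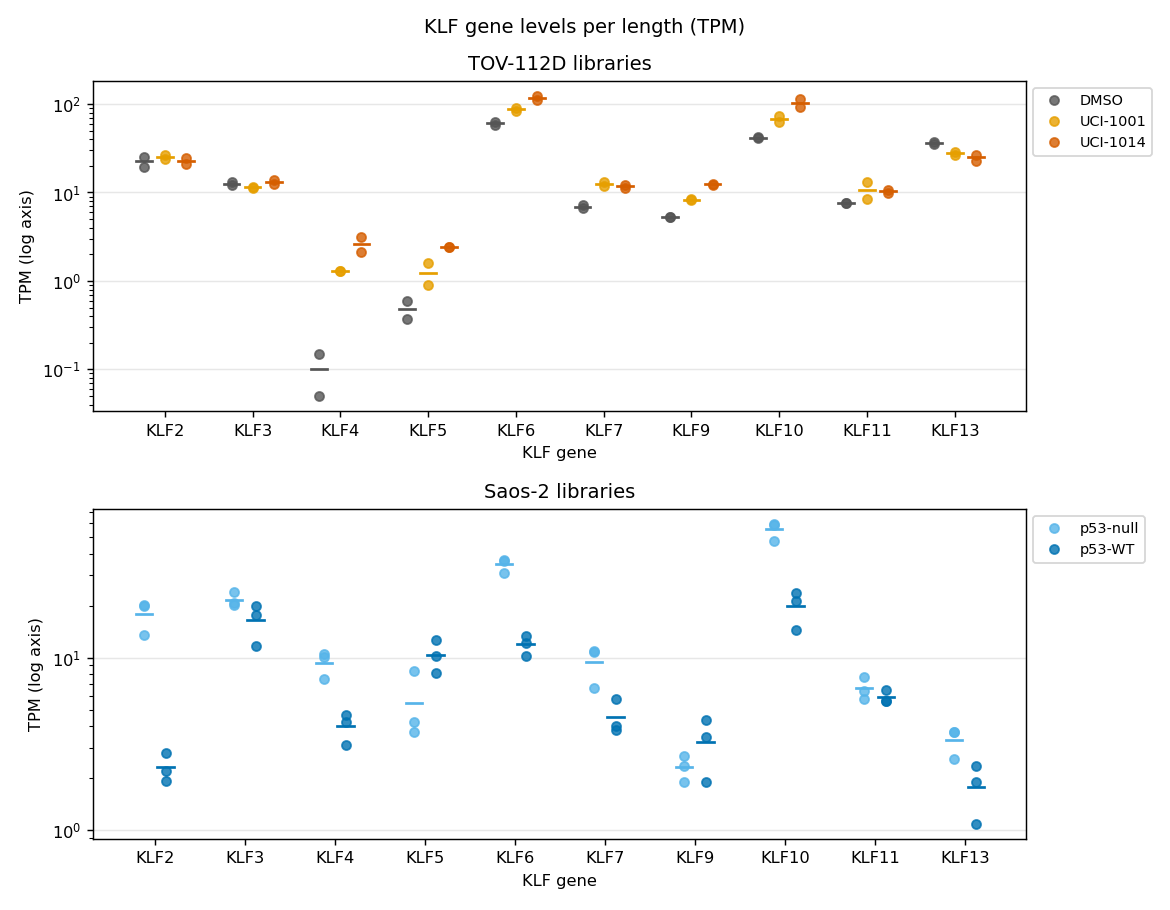
TPM of the 10 KLF genes in each library on a log axis, with points for libraries and short bars for group means (TOV-112D above, Saos-2 below). KLF6 and KLF10, which overlap with UCI-1014, are the highest in TOV-112D, KLF4 and KLF5 the lowest, and KLF13 is high in TOV-112D and low in the Saos-2 libraries.

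Of the 8 further KLF genes, 5 passed the low-count filter in each line, and at the median they differed from DMSO by -0.08 (UCI-1001) and -0.19 (UCI-1014) on the log2 scale. KLF16, of the SIN3-binding group, fell with UCI-1001 (-0.38 ± 0.06) and UCI-1014 (-0.51 ± 0.07), the same direction as KLF13. With UCI-1014, KLF15 rose (0.89 ± 0.16) and KLF8 fell (-0.38 ± 0.13). In p53-WT cells KLF12 (-0.79 ± 0.23) and KLF16 (-0.37 ± 0.15) were lower. KLF8 had 16, 23 and 22 counts in p53-null and 11, 8 and 4 in p53-WT cells and was called lower, but it passed the low-count filter only through p53-null cells. KLF14 had 9, 24 and 28 counts against 40, 48 and 52 and was called higher (1.20 ± 0.34), with 1 p53-null library under the filter's cutoff. KLF1 and KLF18 were at or under 1 count in the Saos-2 libraries and KLF17 at or under 2 in all 12.

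The SP factors bind the same GC boxes. In TOV-112D, 2 of 6 tested were higher with UCI-1001 (SP2 at 0.39 ± 0.07 and SP1 at 0.21 ± 0.04) and 3 of 6 with UCI-1014 (SP2 at 0.99 ± 0.07, SP1 at 0.26 ± 0.04 and SP4 at 0.25 ± 0.08), at medians of 0.24 and 0.26. In the Saos-2 pair 2 of 8 were called higher and 4 lower, among the latter SP4 (-1.82 ± 0.15). Over all genes tested, 9.39% were called higher with UCI-1001, 23.7% with UCI-1014 and 33.5% in p53-WT cells, where 33% were called lower. The calls of SP9 (19, 24 and 28 counts in p53-null and 1, 8 and 3 in p53-WT cells) and SP5 (31, 41 and 52 against 10, 12 and 6) were fixed by the low-count filter, which they passed only through p53-null cells, and both higher genes, SP6 and SP8, reached its cutoff in every p53-WT library but in 2 of the 3 p53-null libraries. SP5 had at most 1 count in TOV-112D.

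Among the 10 cofactor genes, 2 were higher and 1 lower with UCI-1001, and 3 were higher and 5 lower with UCI-1014, at medians of -0.05 and -0.07. The shares over all genes tested were 9.39% higher and 6.36% lower with UCI-1001, and 23.7% and 23.4% with UCI-1014. The acetyltransferase genes EP300 and CREBBP, partners of the activator group, rose with UCI-1001 (0.30 ± 0.04 and 0.23 ± 0.04) and with UCI-1014 (0.66 ± 0.04 and 0.52 ± 0.04). SIN3A, one of the SIN3 corepressor genes listed for the KLF9, KLF10, KLF11 and KLF13 group, fell with UCI-1001 (-0.15 ± 0.05) and UCI-1014 (-0.55 ± 0.05). It was also lower in p53-WT cells (-1.04 ± 0.10). The other, SIN3B, was lower with UCI-1014 (-0.22 ± 0.06), not called with UCI-1001, and higher in p53-WT cells (0.52 ± 0.11). In p53-WT cells KAT2B was higher (1.85 ± 0.13) and HDAC2 lower (-0.87 ± 0.11), within counts of 3 higher and 2 lower and a median of 0.09. Of all genes tested there, 33.5% were higher and 33% lower.

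The list of 13 upstream regulators had 1 higher and 2 lower with UCI-1001, 5 higher and 3 lower with UCI-1014, and 7 higher and 3 lower in p53-WT cells, at medians of 0.02, 0.09 and 0.32. Among all genes tested, 9.39% were higher and 6.36% lower with UCI-1001, and 23.7% and 23.4% with UCI-1014. In p53-WT cells the shares were 33.5% and 33%. MAPK7, the gene of ERK5, which activates KLF2 and KLF4 through MEF2 factors, was lower in all of these comparisons (-0.32 ± 0.07, -0.66 ± 0.08 and -1.06 ± 0.12). SMAD3, a TGF-β effector, fell with UCI-1001 (-0.49 ± 0.08) and UCI-1014 (-0.78 ± 0.09), and MEF2D rose (0.24 ± 0.05 and 0.68 ± 0.05). The largest p53-WT values were in WWP1 (1.91 ± 0.14), a ubiquitin ligase of KLF2 and KLF5, MEF2A (1.81 ± 0.14) and FBXW7 (1.80 ± 0.15), which also targets KLF5.

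Of 13 genes that KLF proteins can regulate, 11 were tested in each line. With UCI-1001, 1 was higher and 2 lower, with UCI-1014, 2 higher and 4 lower, and in p53-WT cells, 4 higher and 6 lower, at medians of -0.05, -0.24 and -0.42. Over all genes tested, the shares were 9.39% higher and 6.36% lower, 23.7% and 23.4%, and 33.5% and 33%, in the same order. CDKN1A had the largest rise of this list in each of these comparisons, at 1.65 ± 0.10, 3.54 ± 0.08 and 7.01 ± 0.19 on the log2 scale, and it is also a direct p53 target. THBD, a KLF2 and KLF4 target in endothelium, had 4 and 4 counts with DMSO, 9 and 7 with UCI-1001 and 25 and 14 with UCI-1014, and 0 in all Saos-2 libraries. It is counted among those higher, but it passed the low-count filter only through the UCI-1014 libraries and so had to differ. The cyclin gene CCND1 (-0.23 ± 0.04) and TGFBR1 (-0.24 ± 0.07) fell with UCI-1001, and also with UCI-1014 (-0.24 ± 0.04 and -0.41 ± 0.07). CDKN1B, the gene of the inhibitor p27, was called lower with UCI-1014 (-0.47 ± 0.07). Under KLF2 control in lymphocytes, S1PR1 was lower in p53-WT cells (-1.19 ± 0.10), as were BIRC5 (-3.23 ± 0.14) and ENG (-1.71 ± 0.14), and TGFBR1 was higher (2.84 ± 0.18).

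With UCI-1014 against UCI-1001, KLF15 was higher by 0.66 ± 0.16 and SP2 by 0.60 ± 0.06, each the 1 gene of its list called. Of all genes tested, 17.1% were called higher and 13.9% lower. Of the cofactors 2 were higher, EP300 (0.36 ± 0.04) and CREBBP (0.29 ± 0.04), and 4 lower, led by SIN3A (-0.41 ± 0.05). Of the upstream regulators 5 were higher and 2 lower, led by MEF2D (0.45 ± 0.05), NR3C1 (0.34 ± 0.10) and MAPK7 (-0.33 ± 0.08). Of the target genes CDKN1A was higher (1.89 ± 0.07) and 2 were lower, among them CDKN1B (-0.29 ± 0.07). THBD was also called higher, a call fixed by the same filter.

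Genes whose log2(CPM + 0.5) followed a member most closely across the 12 libraries were sought among 13241 genes. This is a description in which differences between the lines and between the groups weigh heavily. For KLF2 they were MKI67 (Pearson r = 0.996), E2F2 (0.995) and CENPF (0.994), all known from proliferating cells. In KLF2 and in each of these genes the p53-WT libraries lay below all others, p53-null included. For KLF4 they were YJU2 (0.983), ZSCAN29 (0.981) and GADD45B (0.981). NOP58 (0.994), CRY1 (0.993) and BEND3 (0.992) followed KLF6, and CEBPG (0.987), CACYBP (0.986) and ZNF507 (0.984) followed KLF10.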

How the data were processed

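The authors quantified reads against GRCh38 with kallisto 0.48.0 and deposited whole-number gene counts that were not normalized (DESeq2 1.38.3 is the tool they name for testing). They also deposited, per library, TPM and estimated counts of 187626 transcripts, which kallisto gives after correcting for effective length. The strand setting is not given in the sources used here, so reads of antisense partners cannot be told apart from those of a gene. TPM was summed per gene through GENCODE 44 (88.4% of transcripts matched), and estimated counts served to check that match. Counts were summed by symbol (32252 rows have a symbol, and KLF13 has 2 rows), filtered with filterByExpr, scaled by TMM and tested with edgeR 4.0.16 (glmQLFit, glmQLFTest, Benjamini-Hochberg over all genes, R 4.3.3), 1 fit per cell line with no block. Fold changes carry SE or 95% intervals from the fit. Nothing in the labels says that replicates were separate cultures, so p-values measure the spread between these libraries. The fit was also run on simulated counts in which all genes of a line shared 1 spread. Real genes differ in spread, so that run does not show how the fit performs for single KLF genes.

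The members and gene lists were chosen with earlier results of these data known. All 10 members are given in every library. Of the other lists, genes past the threshold with the 3 largest sizes of change per list and comparison are named. Genes at or under 3 counts are named as well. Others were chosen after their values were seen (KLF16 in p53-WT cells, SIN3B, S1PR1, ENG, and CCND1 and TGFBR1 with UCI-1014). Alternatives were another scaling (RLE), DESeq2 1.42.0, limma 3.58.1 on log2(TPM + 0.1), no low-count filter, rows by gene identifier, other groupings of libraries in a fit, a replicate block, other thresholds and leaving out each library. Some marker and control genes are not reported here.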

Additional observations from a re-analysis of the deposited data

How the results depend on the processing

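The number of KLF genes called was 7 with UCI-1001, 8 with UCI-1014, 6 between the compounds and 8 for p53-WT, and stayed within 1.5 times of these in every alternative run except 3. The main counts against DMSO include KLF4, which passed the low-count filter only through the treated groups. Without it, 5 of 9 genes rose and 1 fell with UCI-1001, and 6 of 9 rose and 1 fell with UCI-1014. KLF4 was also kept in the alternatives and in the counts over single genes below. With all 12 libraries in 1 fit, 3 genes were called with UCI-1001. Between the compounds, 3 were called with limma on log2 TPM and 3 at an adjusted p under 0.001. With the replicate block the counts were 7, 8, 6 and 8; the deviations of same-numbered libraries correlated at 0.06, -0.03 and -0.16 in TOV-112D and 0.14, 0.09 and 0.07 in the Saos-2 pair, so the numbers were not taken to pair the samples. With crossed numbers for UCI-1014, added after seeing the data, the count between the compounds was 8. Leaving out both first Saos-2 libraries, also added afterwards, gave 8 for p53-WT. Leaving out 1 library at a time gave 5 to 7, 7 to 8, 5 to 7 and 7 to 8 genes, where a lone TOV-112D library was assumed to vary like the other groups. DESeq2 gave 7, 7, 5 and 8 and no adjusted p for KLF4 between the compounds. Over single genes, 613 values kept their direction and side of the threshold, 33 lost the call, 7 gained it and 6 changed sign. The direction turned only in genes that were not called: KLF11 with p53-WT was at 0 with RLE scaling and ran from -0.07 to 0.03 when 1 library was left out, KLF3 with UCI-1014 was at -0.01 with all 12 libraries in 1 fit and ran from -0.02 to 0.14 when 1 library was left out, KLF2 with UCI-1014 was at 0.02 and KLF11 between the compounds at -0.02 with limma on log2 TPM. The cause was not tested. At 1 count per DMSO library, depth limits how closely the KLF4 fold change can be given.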
